A study of Mus musculus with 12 samples.

Results

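The 10 genes described here mark the vessels of the mouse heart or signal to them, and were taken by symbol from the 51911 features of the count tables. They form 3 groups that are kept apart: 6 endothelial markers (Pecam1, Kdr, Flt1, Tek, Eng and Esam), 2 pericyte markers (Abcc9 and Kcnj8) and 2 growth factors (Vegfa and Angpt1). All 10 passed the filter on low counts in each comparison. Total RNA of hearts was sequenced after depletion of cytoplasmic ribosomal RNA in 12 libraries, 3 in each of 4 groups. The groups were PTCD1 knockout (KO) RNA treated with CMC, wild-type (WT) RNA treated with CMC, untreated KO RNA and untreated WT RNA. CMC is a carbodiimide that binds pseudouridine in isolated RNA, so the treatment acted on RNA and not on the heart. The series asks how loss of PTCD1, a mitochondrial RNA-binding protein, changes RNA. The labels give neither strain, age nor sex, nor the number of mice behind a library, nor the cells in which Ptcd1 was deleted. The p-values therefore measure the spread between these libraries, which may be technical.

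Endothelial cells line the vessels and carry receptors that read growth factors made by the cells around them. Vegfa, which in the heart comes mainly from cardiomyocytes and is induced when oxygen is scarce, acts through the receptor that Kdr encodes. Flt1 encodes a receptor that also binds Vegfa and can hold it away from Kdr. Angpt1 activates the TIE2 receptor encoded by Tek and keeps vessels stable. Pericytes wrap around capillaries. Abcc9 and Kcnj8 encode the 2 kinds of subunit of their ATP-sensitive potassium channel, and Abcc9 is also expressed by cardiomyocytes.

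On mm10 the endothelial markers on the minus strand are Pecam1 (ENSMUSG00000020717.19) at chr11:106654217-106750628, Kdr (ENSMUSG00000062960.10) at chr5:75932827-75978458 and Flt1 (ENSMUSG00000029648.13) at chr5:147561604-147726011. Those on the plus strand are Tek (ENSMUSG00000006386.15) at chr4:94739289-94874976, Eng (ENSMUSG00000026814.16) at chr2:32646595-32682669 and Esam (ENSMUSG00000001946.14) at chr9:37528078-37538319. The pericyte markers are Abcc9 (ENSMUSG00000030249.15) at chr6:142587862-142702315 and Kcnj8 (ENSMUSG00000030247.9) at chr6:142564837-142571614, and the growth factors are Vegfa (ENSMUSG00000023951.17) at chr17:46016993-46032369 and Angpt1 (ENSMUSG00000022309.8) at chr15:42424727-42676977, all 4 on the minus strand. All 10 are annotated as protein-coding, and counts are per gene.

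Promoters of the VEGF receptors, of Vegfa and of both channel genes are shown because these genes are the ligand with its receptors and a neighbouring pair that moved the same way. RefSeq (GRCm38.p6) gave 8 windows for 7 of the 10 genes, 2 of them for Vegfa. Of these the one at the start of the annotated gene is shown, and the other lies inside the gene. Each line holds the 250 bases before the annotated start, 5′ to 3′ on the strand of the gene. Capitals mark matches on either strand to 5 motifs. The core of the hypoxia response element was searched as ACGTG and, in its other common form, as GCGTG. The composite element of ATF4 and C/EBP was searched as TGATGNAA, the ETS core as GGAAG and the GATA site as GATAA. No matches overlapped in the lines shown.
Vegfa (chr17:46032378-46032627, minus strand): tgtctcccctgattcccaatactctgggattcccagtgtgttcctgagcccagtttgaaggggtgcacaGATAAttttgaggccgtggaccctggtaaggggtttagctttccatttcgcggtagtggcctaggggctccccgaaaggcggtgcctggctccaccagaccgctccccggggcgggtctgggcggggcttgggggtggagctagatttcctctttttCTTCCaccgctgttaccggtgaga
Kdr (chr5:75978456-75978705, minus strand): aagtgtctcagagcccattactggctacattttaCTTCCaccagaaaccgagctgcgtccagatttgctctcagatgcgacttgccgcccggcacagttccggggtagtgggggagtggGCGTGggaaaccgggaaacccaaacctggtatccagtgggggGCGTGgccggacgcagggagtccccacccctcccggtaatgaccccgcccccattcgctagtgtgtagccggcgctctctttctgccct
Flt1 (chr5:147726012-147726261, minus strand): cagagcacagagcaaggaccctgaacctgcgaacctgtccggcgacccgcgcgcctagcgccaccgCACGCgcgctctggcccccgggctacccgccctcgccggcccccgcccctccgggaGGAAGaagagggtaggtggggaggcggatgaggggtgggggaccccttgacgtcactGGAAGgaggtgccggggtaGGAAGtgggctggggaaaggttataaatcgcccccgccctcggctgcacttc
Abcc9 (chr6:142702275-142702524, minus strand): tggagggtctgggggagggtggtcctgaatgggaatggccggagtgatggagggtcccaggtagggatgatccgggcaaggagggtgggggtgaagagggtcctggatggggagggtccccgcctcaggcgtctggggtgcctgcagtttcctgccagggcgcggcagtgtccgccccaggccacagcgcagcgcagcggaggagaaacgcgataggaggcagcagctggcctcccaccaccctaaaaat
Kcnj8 (chr6:142571615-142571864, minus strand): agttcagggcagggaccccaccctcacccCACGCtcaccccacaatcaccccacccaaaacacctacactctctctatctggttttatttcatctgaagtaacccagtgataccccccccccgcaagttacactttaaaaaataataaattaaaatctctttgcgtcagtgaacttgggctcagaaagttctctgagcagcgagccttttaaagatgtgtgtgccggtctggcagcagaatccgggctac
Among 32851 RefSeq promoter windows, these 250 bases held GCGTG in 28.2%, ACGTG in 16.6%, TGATGNAA in 3.45%, GGAAG in 64.1% and GATAA in 22.6%. GCGTG occurred 2 times before Kdr, once before Flt1 and once before Kcnj8. GGAAG occurred 3 times before Flt1, once before Kdr and once in the Vegfa window shown, which also held GATAA and neither hypoxia core. The Vegfa window not shown (chr17:46025164-46025413) held both hypoxia cores and GGAAG, each once. Abcc9 had none of these letters in its window. Matches describe these letters only.

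Total depth ran from 10389398 to 12462093 counts per library, of which 2683284 to 3187748 fell in nuclear genes and 70.5% to 75.4% in mitochondrial genes. Levels are therefore given as counts per 1000000 nuclear counts (CPM), with TMM factors over nuclear genes. Ptcd1 itself had 28, 17 and 19 counts in untreated KO libraries, against 78, 71 and 74 counts in untreated WT libraries. After CMC it had 23, 21 and 20 counts in KO libraries and 79, 103 and 74 counts in WT libraries. WT CMC replicate 3 stood apart: its gene counts differed from the other WT CMC libraries with a chi-square per degree of freedom of 1.96 and 2.28, against 1.11 to 1.35 in all other replicate pairs. All 10 genes were called in the same direction between KO and WT after CMC without that library.

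The vascular genes were read from whole tissue, in which fewer cells of a type and less RNA per cell cannot be told apart. Markers of other cell types were counted in the same way in untreated hearts, where 29.2% of all features were called higher and 28.7% lower. The summed level of 12 cardiomyocyte markers was 128083 to 128604 CPM in untreated KO hearts and 217542 to 221264 CPM in untreated WT hearts. Of the 12, 10 were lower and 1, Actn2, was higher at 0.13. Ttn made up most of the sum, with a mean of 86389 CPM in untreated KO and 127005 CPM in untreated WT hearts. After CMC the sum was 132576 to 136503 CPM in KO and 208827 to 223643 CPM in WT libraries. Erythrocyte markers summed to 419 to 443 CPM in untreated KO and 484 to 674 CPM in untreated WT hearts, with 4 of 5 tested genes lower. Macrophage markers summed to 444 to 456 CPM in untreated KO and 387 to 390.0 CPM in untreated WT hearts. Of 9 tested genes 3 were higher, a share near that of all features, and none was lower. Of 9 tested fibroblast markers, 5 were higher and 3 lower, and of 4 mesothelial and 3 adipocyte markers tested, 3 and 2 were lower and none higher. No lymphocyte or neutrophil marker passed the filter, and Ly6g had no count in any library. The part of these other cells in the vascular results was not tested.

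In untreated hearts the 6 endothelial markers did not move one way. Eng, Esam, Flt1 and Pecam1 were higher in KO than in WT, while Tek and Kdr were lower, and their log2 fold changes ran from -0.52 to 0.66 with a median of 0.30. Over all features tested the median was -0.0025. Together with the pericyte genes and growth factors, 5 of the 10 genes were higher and 5 lower by edgeR's quasi-likelihood test with Benjamini-Hochberg adjustment at 0.05. For all 10 the KO and WT libraries did not overlap. In this comparison 57.9% of all features tested were called, 29.2% higher and 28.7% lower, and 61.3% did not overlap, 30.8% with KO above and 30.5% with KO below. A call alone therefore did not set these genes apart, and the sizes and directions follow. Each standard error (SE) of a log2 fold change was derived from the edgeR test statistic and is approximate.

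**Figure D1:**
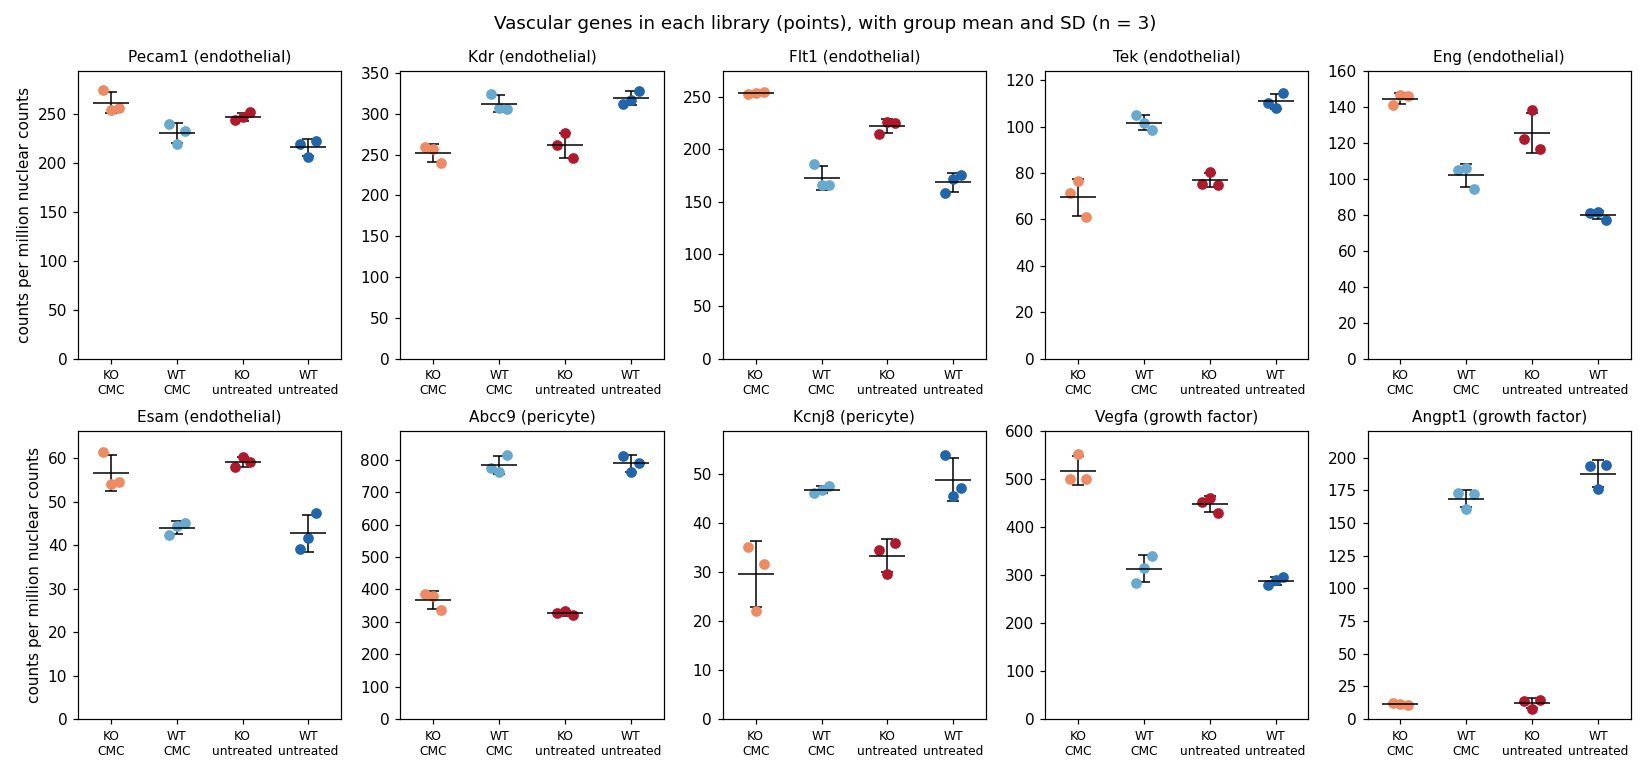
Level of each of the 10 genes in counts per 1000000 nuclear counts (vertical axes, from 0) in the 12 libraries, by group; points are libraries and lines the group mean ± SD (n = 3). KO and WT points are apart in every panel, and the Angpt1 points of KO lie between 7.70 and 14.3 CPM, against 161 to 194 CPM in WT.

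Eng encodes endoglin, a co-receptor of the TGF-β family on endothelial cells. It had 122, 138 and 117 CPM in untreated KO hearts, against 80.8, 81.8 and 77.3 CPM in untreated WT hearts. All 3 KO libraries were above all WT libraries, and the gene was 1.57-fold higher in KO, a log2 fold change of 0.66 ± 0.07 (SE; adjusted p = 1.91e-16). Eng overlaps Fpgs on the opposite strand, which had only 15, 24 and 29 counts in KO and 13, 18 and 16 counts in WT untreated libraries. Eng itself had 397, 431 and 367 counts in KO and 233, 232 and 223 counts in WT. The labels do not say whether reads were counted by strand.

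Flt1, the receptor that binds Vegfa without passing on a strong signal, had 214, 226 and 225 CPM in untreated KO and 158, 171 and 176 CPM in untreated WT hearts. No KO library reached down to the WT range, and Flt1 was 1.32-fold higher in KO, with a log2 fold change of 0.40 ± 0.05 (SE; adjusted p = 1.54e-11). Kdr, the main signalling receptor for the same ligand, had 261, 277 and 246 CPM in untreated KO and 312, 316 and 328 CPM in untreated WT hearts. Its KO libraries were all below the WT libraries, and it was 1.22-fold lower in KO, with a log2 fold change of -0.28 ± 0.05 (SE; adjusted p = 2.13e-08). The 2 VEGF receptors, both on chromosome 5, thus moved in opposite directions.

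Tek, the receptor for Angpt1, had 75.4, 80.6 and 75.0 CPM in untreated KO and 110.3, 108 and 114 CPM in untreated WT hearts. The groups were apart, and Tek was 1.44-fold lower in KO, with a log2 fold change of -0.52 ± 0.07 (SE; adjusted p = 6.32e-11). Esam, an adhesion molecule of endothelial junctions, had 57.9, 60.3 and 59.1 CPM in untreated KO and 39.2, 41.6 and 47.5 CPM in untreated WT hearts. The KO libraries were again all higher, 1.38-fold, with a log2 fold change of 0.47 ± 0.10 (SE; adjusted p = 1.02e-05). Pecam1, the CD31 adhesion molecule used to stain endothelium, had 243, 247 and 252 CPM in untreated KO and 219.6, 206 and 222 CPM in untreated WT hearts. Its difference was the smallest of the 6, 1.15-fold higher in KO, with a log2 fold change of 0.20 ± 0.05 (SE; adjusted p = 0.000311).

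Both pericyte markers were lower in KO. Abcc9, the regulatory subunit of the channel, had 326, 335 and 319.8 CPM in untreated KO and 812, 762 and 791 CPM in untreated WT hearts. The groups lay far apart, and Abcc9 was 2.41-fold lower in KO, with a log2 fold change of -1.27 ± 0.04 (SE; adjusted p = 1.41e-91). Kcnj8, the pore subunit KIR6.1, had 34.5, 29.5 and 35.9 CPM in untreated KO and 53.8, 45.5 and 47.1 CPM in untreated WT hearts, also with no overlap. It was 1.46-fold lower in KO, with a log2 fold change of -0.55 ± 0.11 (SE; adjusted p = 4.40e-06). The 2 genes are neighbours on chromosome 6, both on the minus strand, with 16248 bases between them. An annotated antisense gene that overlaps Abcc9, 5330439B14Rik, had 0 counts in all 12 libraries. Kcnj11, the pore subunit of the cardiomyocyte channel that pairs with Abcc9, was also lower in untreated KO hearts, with 80.3 ± 4.73 CPM in KO and 116 ± 4.59 CPM in WT (SD, n = 3) and a log2 fold change of -0.53. Abcc8, another regulatory subunit of such channels, had 52.1 ± 1.43 CPM in KO and 57.4 ± 3.25 CPM in WT and was not called (log2 fold change -0.14, adjusted p = 0.205 by edgeR). After CMC Abcc8 was lower, with 47.0 ± 4.76 CPM in KO and 63.0 ± 7.71 CPM in WT (SD, n = 3) and a log2 fold change of -0.43 (adjusted p = 0.000892 by edgeR). The lower cardiomyocyte markers given above stand beside these values for Abcc9, whose source cell cannot be read from whole tissue.

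The growth factors moved in opposite directions, and Angpt1 changed most of the 10 genes. In untreated KO hearts Angpt1 had 46, 24 and 45 counts, against 557, 498 and 561 counts in untreated WT hearts. Scaled to depth, KO libraries held 14.2, 7.70 and 14.3 CPM, against 193, 176 and 194 CPM for WT. The highest KO library was far below the lowest WT library, and Angpt1 was 15.4-fold lower in KO, with a log2 fold change of -3.95 ± 0.10 (SE; adjusted p = 1.01e-108). As for Abcc9, the source cell of Angpt1 cannot be read from whole tissue. Gm17473, an annotated antisense gene that overlaps Angpt1 on chromosome 15, had 2, 1 and 1 counts in KO and 7, 3 and 6 counts in WT untreated libraries. Vegfa had 454, 461 and 429.7 CPM in untreated KO and 279, 290.2 and 296 CPM in untreated WT hearts. Its groups did not overlap either, and it was 1.56-fold higher in KO, with a log2 fold change of 0.64 ± 0.04 (SE; adjusted p = 6.48e-35). The authors' deposited table for untreated hearts does not name its direction. It lists Ptcd1 at -1.93, Angpt1 at -3.94, Abcc9 at -1.25 and Vegfa at 0.66 on the log2 scale. Its standard error for Angpt1 is 0.17, larger than the 0.10 given here.

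After CMC the same 10 genes were called in the same directions, again without overlap between KO and WT libraries. In this comparison 54.1% of all features tested were called, 27.3% higher and 26.8% lower, and 58.8% did not overlap, 29.8% with KO above and 29% with KO below. The libraries are other ones than in the untreated comparison, though the labels do not say whether they came from other hearts. Angpt1 had 12.4, 11.2 and 10.4 CPM in KO and 173, 161 and 172 CPM in WT libraries, so the KO group was again far below. It was 14.8-fold lower in KO, with a log2 fold change of -3.89 ± 0.11 (SE; adjusted p = 4.02e-23). Vegfa had 501, 553 and 502 CPM in KO and 284, 314 and 341 CPM in WT libraries after CMC. All KO libraries were above WT, 1.65-fold, with a log2 fold change of 0.72 ± 0.06 (SE; adjusted p = 6.16e-11).

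Abcc9 had 387, 381 and 336 CPM in KO and 775, 763 and 814 CPM in WT libraries after CMC, a log2 fold change of -1.10 ± 0.06 (SE; adjusted p = 4.24e-16). Kcnj8 had 35.0, 22.1 and 31.6 CPM in KO and 46.1, 46.6 and 47.6 CPM in WT libraries, a log2 fold change of -0.66 ± 0.13 (SE; adjusted p = 5.99e-05). Both channel genes thus stayed below WT in each KO library, although the KO values of Kcnj8 were spread widely. Among the endothelial markers the log2 fold changes after CMC were 0.55 for Flt1 (SE 0.07, adjusted p = 3.28e-08 by edgeR) and 0.50 for Eng (SE 0.08, adjusted p = 2.44e-06). Esam stood at 0.36 (SE 0.10, adjusted p = 0.00269), Kdr at -0.32 (SE 0.06, adjusted p = 7.44e-05) and Tek at -0.55 (SE 0.09, adjusted p = 4.64e-06). Pecam1 was the least firm, at 0.18 (SE 0.06, adjusted p = 0.0193). Its call was lost without KO CMC replicate 1 (log2 fold change 0.15, adjusted p = 0.109) and without WT CMC replicate 2 (log2 fold change 0.15, adjusted p = 0.0776).

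**Figure D2:**
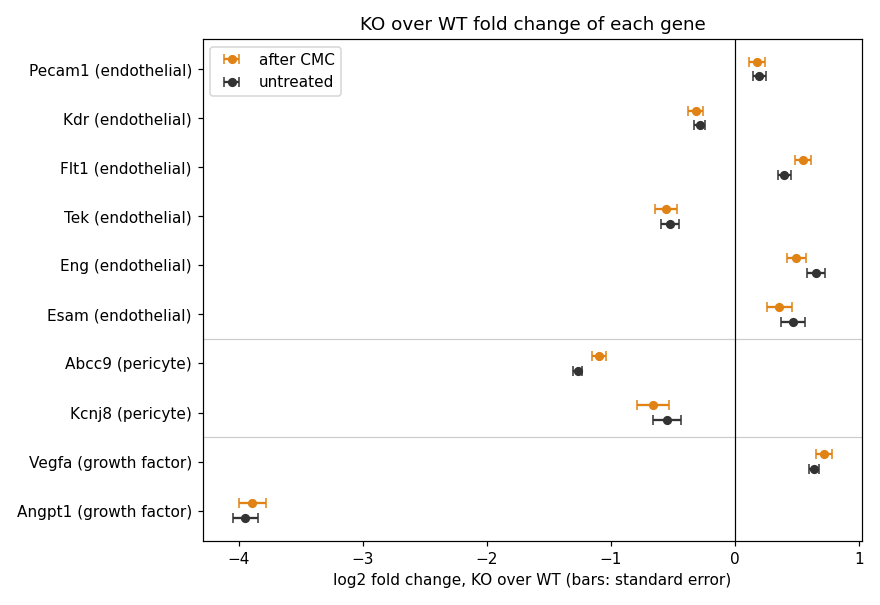
Log2 fold change of KO over WT (horizontal axis) for each of the 10 genes after CMC (upper, orange) and untreated (lower, dark). Bars are approximate standard errors derived from the edgeR test statistic, in fits of 6 libraries each. Both points of every gene lie on the same side of 0, with Angpt1 at -3.89 after CMC and -3.95 untreated.

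Levels of different genes can be compared only per length, as CPM per kilobase of the deposited gene length. The length of the expressed transcripts was not measured, so the order of genes depends on the deposited length. In untreated KO hearts Vegfa stood highest, with 105 ± 3.84 CPM per kilobase (SD, n = 3). Pecam1 (39.7 ± 0.663) and Abcc9 (39.0 ± 0.902) followed and overlapped, then Eng (31.1 ± 2.78) and Kdr (28.9 ± 1.68), which also overlapped. Below came Esam (20.6 ± 0.430), then Flt1 (16.4 ± 0.490) and Tek (16.3 ± 0.656), which overlapped, Kcnj8 (13.1 ± 1.32) and Angpt1 (2.83 ± 0.886). In untreated WT hearts the order was another one. There Abcc9 led with 94.2 ± 2.99 CPM per kilobase, ahead of Vegfa (67.3 ± 2.09) and Angpt1 (44.1 ± 2.47). Kdr (35.3 ± 0.925) and Pecam1 (34.7 ± 1.38) overlapped, Tek had 23.5 ± 0.688, and Eng (19.8 ± 0.593) and Kcnj8 (19.2 ± 1.72) overlapped. Esam (14.9 ± 1.48) and Flt1 (12.5 ± 0.673) were lowest in WT. Angpt1 was therefore last of the 10 in KO and the third in WT.

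**Figure D3:**
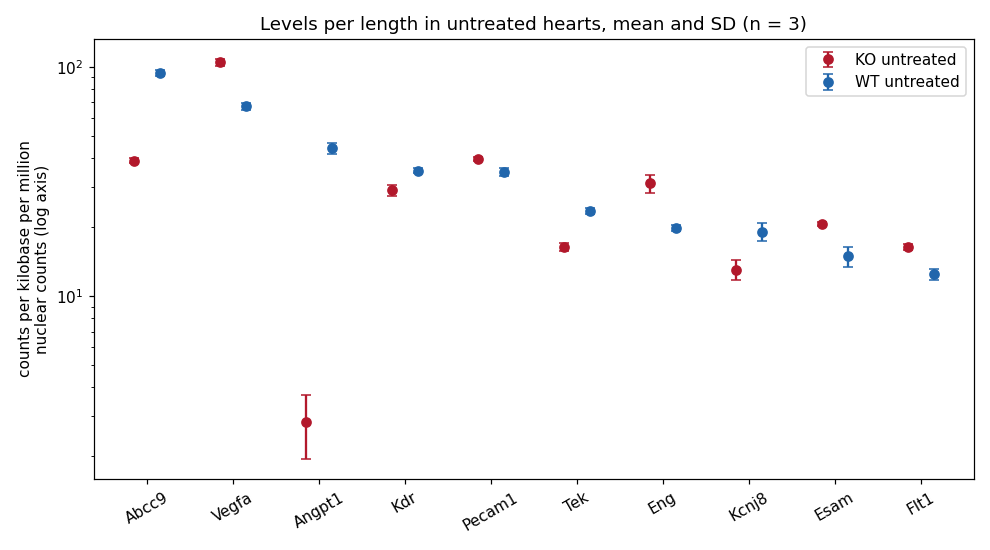
Counts per kilobase per 1000000 nuclear counts (log axis) of the 10 genes in untreated KO and untreated WT hearts, as mean ± SD (n = 3), ordered by the WT level. Angpt1 stands at 2.83 in KO and 44.1 in WT, and Abcc9 at 39.0 in KO and 94.2 in WT.

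Ratios of such levels set each ligand beside its receptor, and paired receptors and subunits beside each other. Vegfa over Kdr was 3.66, 3.51 and 3.68 in untreated KO and 1.88, 1.93 and 1.90 in untreated WT libraries. Every KO value was above every WT value, 1.90-fold on average of logs. Angpt1 over Tek was 0.208, 0.106 and 0.211 in untreated KO and 1.94, 1.80 and 1.88 in untreated WT libraries. Here the KO values were all below WT, by 11.2-fold. Flt1 over Kdr was 0.549, 0.547 and 0.611 in untreated KO and 0.339, 0.362 and 0.358 in untreated WT libraries, 1.61-fold higher in KO. Kcnj8 over Abcc9 was 0.348, 0.29 and 0.369 in untreated KO and 0.218, 0.196 and 0.196 in untreated WT libraries, 1.65-fold higher in KO, so Abcc9 was the lower of the pair by more. A two-sided exact permutation test of 3 against 3 libraries gave p = 0.1 for each of these, the smallest it can give, and 0.114 adjusted over 8 tests.

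After CMC, Vegfa over Kdr was 4.07, 4.53 and 4.42 in KO and 1.85, 2.16 and 2.35 in WT libraries. Angpt1 over Tek was 0.193, 0.163 and 0.189 in KO and 1.83, 1.75 and 1.93 in WT libraries. Flt1 over Kdr was 0.653, 0.66 and 0.711 in KO and 0.383, 0.361 and 0.363 in WT libraries. These 3 ratios kept the direction seen in untreated libraries, with no overlap and an exact permutation p of 0.1 each. Kcnj8 over Abcc9 was 0.297, 0.19 and 0.309 in KO and 0.195, 0.201 and 0.192 in WT libraries. The groups overlapped there, since KO CMC replicate 2 was below the WT values, and the exact permutation p was 0.4.

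**Figure D4:**
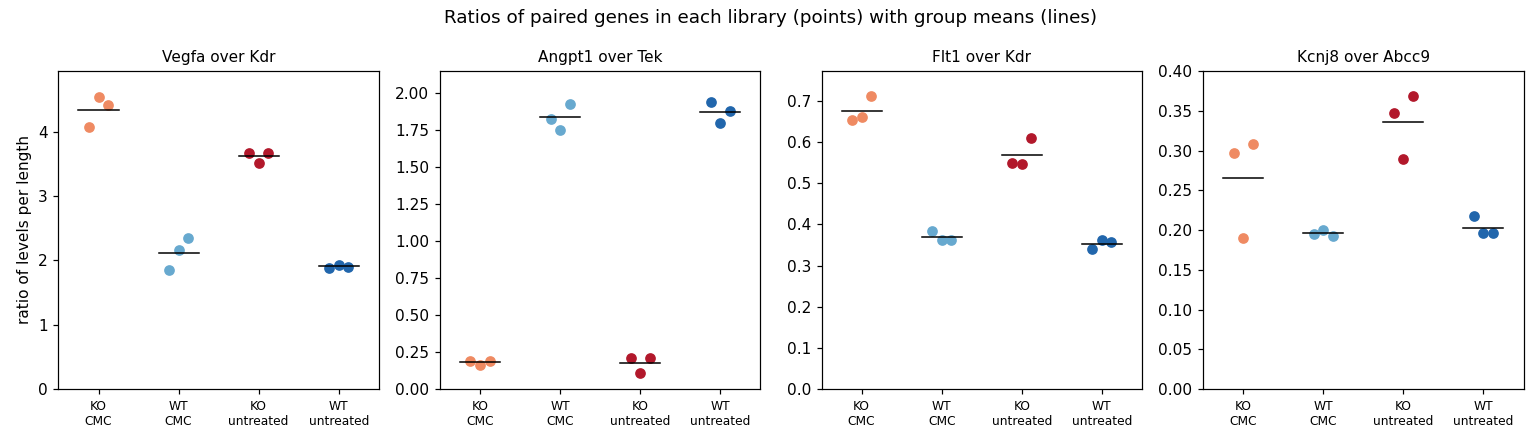
Ratios of levels per length (vertical axes, from 0) in each of the 12 libraries, by group, with the group mean as a line. Angpt1 over Tek lies between 0.106 and 0.211 in KO and between 1.75 and 1.94 in WT libraries, and for Kcnj8 over Abcc9 after CMC the KO and WT points overlap.

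CMC effects on these genes were small in size. In KO libraries 4 of the 10, Vegfa, Eng, Flt1 and Abcc9, were higher after CMC and none was lower, where 12.2% of all features were called, 6.82% higher and 5.37% lower. Vegfa had 501, 553 and 502 CPM after CMC and 454, 461 and 429.7 CPM untreated, with a log2 fold change of 0.20 ± 0.04 (SE; adjusted p = 0.000386) by edgeR. Flt1 had 253, 254 and 254 CPM after CMC and 214, 226 and 225 CPM untreated, with a log2 fold change of 0.19 ± 0.05 (SE; adjusted p = 0.00751). In both genes all CMC libraries were above all untreated ones. The log2 fold changes of Eng, 0.19 ± 0.06 (SE; adjusted p = 0.0318), and Abcc9, 0.17 ± 0.05 (SE; adjusted p = 0.0115), were as small, and DESeq2 called only Vegfa. No gene was lower at an unadjusted p under 0.05 or by DESeq2, which gave no adjusted p for Angpt1 here. Leaving out 1 library left between 2 and 4 of the genes called. Of the 10 genes, 5 did not overlap between CMC and untreated KO libraries, all of them higher. Of all features 27.1% did not overlap, 14.3% higher and 12.8% lower. The other 6 genes, with log2 fold changes from -0.17 for Kcnj8 to 0.08 for Pecam1, did not pass the test. The CMC values are given in the same unit, but the treatment changes which RNA reaches the library.

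In WT libraries Eng alone was called, with 105, 106 and 94.5 CPM after CMC and 80.8, 81.8 and 77.3 CPM untreated. All 3 CMC libraries were above the untreated ones, and the log2 fold change was 0.35 ± 0.08 (SE; adjusted p = 0.0176) by edgeR, where 2.12% of all features were called, 0.892% higher and 1.23% lower. Eng was not called by DESeq2 (adjusted p = 0.0583). It was also not called by edgeR when any library other than WT CMC replicate 3 was left out (adjusted p = 0.0516 to 0.0989). Without WT CMC replicate 3 its log2 fold change was 0.41, with an adjusted p of 0.000431. None of the 10 was called lower in WT by edgeR or DESeq2, although Angpt1, at -0.16, had an unadjusted p under 0.05. DESeq2 gave no adjusted p for Esam and Kcnj8 in this comparison. Between CMC and untreated WT libraries 7 of the 10 genes overlapped, 1 was apart and higher, and 2 were apart and lower. Of all features 19% did not overlap, 9.25% higher and 9.79% lower.

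The difference between the CMC effects of KO and WT was not called for any of the 10 genes by edgeR. By edgeR 1.49% of all features were called, 1.11% higher and 0.383% lower. DESeq2 called none of the 10 either, but gave no adjusted p for Esam and Kcnj8. At an unadjusted p under 0.05 there was 1, Abcc9, at 0.18 ± 0.07 (SE; adjusted p = 0.223). Without WT CMC replicate 3, Abcc9 was called, with a log2 difference of 0.21 and an adjusted p of 0.0266. For the remaining genes the differences ran from -0.15 (SE 0.11) for Eng to 0.16 (SE 0.08) for Flt1.

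Other genes of the vessel wall and of its signals were counted in lists, in untreated KO against WT hearts, where 57.9% of all features were called. Of 33 other endothelial genes, 9 were higher, 11 lower and 13 not called, with a median log2 fold change of 0.02. The largest upward were Sox17, a transcription factor of arterial endothelium, at 1.36 and S1pr1, the receptor for sphingosine-1-phosphate, at 0.91. The largest downward were Bmx, a kinase of arterial endothelium, at -1.06 and Palmd at -0.80. Sox17 and Bmx were among the low genes of the list, with means of 10.7 and 7.97 CPM over all libraries. Without TMM factors the same list gave 14 higher and 6 lower, and DESeq2 called 7 higher and 6 lower. Without KO untreated replicate 2, 7 of the list were lower. DESeq2 also called fewer genes in all, 2586 higher and 2371 lower, against 3567 and 3503 features by edgeR. After CMC 9 of the 33 were again higher and 11 lower, with a median of -0.09, where 27.3% of all features were higher and 26.8% lower. In this list DESeq2 called 9 higher and 6 lower after CMC, and 7 were lower without KO CMC replicate 2. In all, DESeq2 called 2558 genes higher and 2323 lower after CMC, against 3331 and 3272 features by edgeR. The summed level of this list was 3201 to 3408 CPM in untreated KO and 3303 to 3360.3 CPM in untreated WT hearts, ranges that overlap. Among 18 arterial, Notch and tip cell genes, 4 were higher and 5 lower, with Unc5b, a guidance receptor, at 1.03 and Notch4 at 0.99. Gja5, the gap junction protein connexin 40, stood at -1.35 and Apln, the ligand apelin, at -1.16. This list gave 6 higher and 4 lower without TMM factors. Of 8 tested endocardial, venous and lymphatic genes, 2 were higher and 3 lower, among them Lyve1 at 0.62, Nr2f2, a venous regulator, at -1.13, Prox1, a lymphatic regulator that cardiomyocytes also express, at -0.84 and Npr3 at -0.36. This list gave 4 higher and 3 lower without TMM factors, and 1 higher and 3 lower by DESeq2. Only 1 was higher without KO untreated replicate 3 and without WT untreated replicate 2.

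Mural cell genes were mostly lower where they were called. Of all features 29.2% were higher and 28.7% lower in untreated hearts, and 27.3% and 26.8% after CMC. Of 16 other pericyte genes, 2 were higher, 7 lower and 7 not called, with a median of -0.27, while DESeq2 called 1 higher and 4 lower. Gucy1a1, a subunit of the nitric oxide receptor, stood at -1.30, Vtn, which encodes vitronectin, at -0.85 and Colec11 at -0.52. The 2 higher genes were Mcam, an adhesion molecule, at 0.33 and Notch3, a receptor of mural cells, at 0.31. The widely used pericyte markers Pdgfrb, at -0.06, and Cspg4, at 0.08, were not called (adjusted p = 0.348 and 0.358 by edgeR). These 4 were chosen for naming after their values were seen, and so was Rgs5, the gene with the highest mean level in the list. Rgs5 was lower, at -0.29 (adjusted p = 3.94e-15 by edgeR). Its mean was 803 CPM in untreated KO and 983 CPM in untreated WT hearts, so it weighs heavily in the sum of the list. After CMC Rgs5 was not called (log2 fold change -0.12, adjusted p = 0.0653 by edgeR). The summed level of the list was 1401 to 1432 CPM in untreated KO and 1672 to 1690.3 CPM in untreated WT hearts. After CMC 0 of 15 tested were higher and 7 lower, though only 3 were lower without TMM factors, 3 by DESeq2 and 4 without KO CMC replicate 3. Of 9 smooth muscle genes, 7 were lower and none higher, with a median of -0.68, and after CMC again 7 were lower and none higher. Without TMM factors 1 of the 9 was higher in untreated hearts. Pln, at -2.33, is foremost a cardiomyocyte gene, and the summed level of the other 8 was 680.4 to 733 CPM in untreated KO and 1058 to 1154 CPM in untreated WT hearts. Pln is counted among the 7 lower genes. Lmod1 stood at -1.20, Itga8 at -1.12 and Smtn at -1.05. The 2 not called were Tagln, at 0.10, and Cnn1, at -0.09 (adjusted p = 0.283 and 0.685 by edgeR).

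In the VEGF family besides Vegfa, Kdr and Flt1, 3 of 5 tested genes were lower and none higher, where 28.7% of all features were lower. Some genes are counted in more than 1 list, among them Flt4, Tie1, Ptprb, Apln and Egfl7. Nrp1, a co-receptor for Vegfa, stood at -0.83, with 182 ± 6.67 CPM in untreated KO and 325 ± 1.09 CPM in untreated WT hearts (SD, n = 3). Vegfb, a ligand of Flt1, stood at -0.29 and Nrp2 at -0.21, but only 1 gene of this list was lower by DESeq2, and 1 lower and 1 higher without TMM factors. Among 5 tested genes related to angiopoietins and TIE receptors, Angptl2 was lower at -1.12, Tie1, the relative of Tek, lower at -0.18, and Ptprb, a phosphatase that acts on TIE2, higher at 0.27. Only 1 gene of that list was lower by DESeq2, without TMM factors, without a filter, in 1 fit of all 12 libraries, and without any one KO untreated library or WT untreated replicate 1. Of 24 other angiogenic factors, 11 were higher and 7 lower, with a median of 0.25. Of 25 tested after CMC, 11 were higher and 7 lower, against 7 and 6 by DESeq2. Of all features 29.2% were higher and 28.7% lower in untreated hearts, and 27.3% and 26.8% after CMC. Ccn2, a matrix-associated growth factor, stood at 3.63, with 580.0 ± 23.1 CPM in untreated KO and 47.1 ± 2.28 CPM in untreated WT hearts. Thbs1, the angiogenesis inhibitor thrombospondin, stood at 2.80, Bmp10, a ligand that endoglin binds, at 2.19 and Ednrb, an endothelin receptor, at 1.70.

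Hypoxia targets, a list to which Vegfa was not counted, did not move one way. Of 20 tested, 11 were higher, 5 lower and 4 not called, with a median of 0.31. Of all features 29.2% were called higher and 28.7% lower. After CMC 9 of these targets were higher and 6 lower, where 27.3% of all features were higher and 26.8% lower. Slc2a1, the glucose transporter GLUT1, stood at 2.86, Ero1l at 2.64 and Ddit4 at 1.44, while Vldlr was lower at -1.79. Some of these genes are also known targets of the integrated stress response. The summed level of the list was 2238 to 2336 CPM in untreated KO and 2274 to 2427 CPM in untreated WT hearts. Vldlr, with 192 ± 4.52 CPM in untreated KO and 663 ± 26.9 CPM in untreated WT hearts (SD, n = 3), weighs heavily in it. The sum therefore does not show the direction of most genes. Of 6 tested oxygen-sensing factors, 2 were higher and 2 lower. Hif1a, a subunit of the hypoxia-inducible factor that is controlled mainly at the protein level, stood at 1.44, with 552 ± 13.6 CPM in untreated KO and 205 ± 6.31 CPM in untreated WT hearts (SD, n = 3). Egln2 stood at 0.57, Hif1an at -0.46 and Epas1, the endothelial relative of Hif1a, at -0.36.

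**Figure D5:**
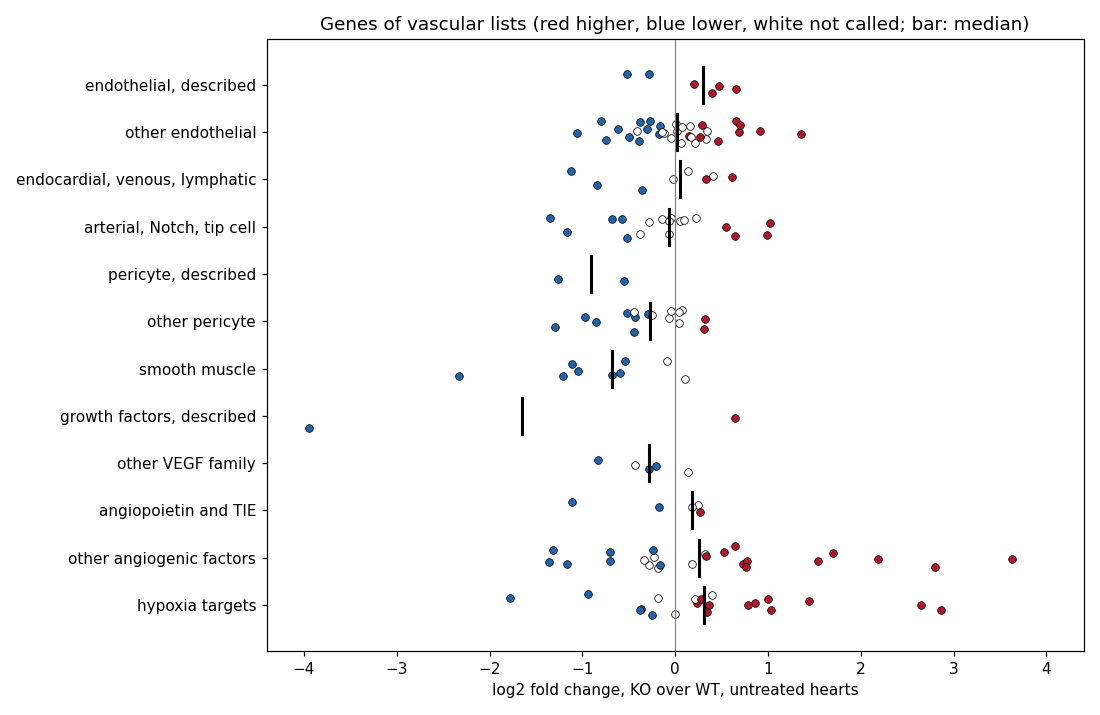
Log2 fold change of KO over WT in untreated hearts (horizontal axis) for the tested genes of each vascular list; each point is a gene, filled red where higher, blue where lower and white where not called, and the bar is the median of the list. The 33 other endothelial genes spread to both sides with a median of 0.02, while smooth muscle genes have a median of -0.68.

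Genes with the pattern most like each group were ranked by the root mean square difference of centred log2 CPM over the 12 libraries, among 8777 protein-coding genes. Nearest to the mean of the 2 pericyte markers were Ndufs1 (0.0720), Selenop (0.0818), Zfp106 (0.0822), Ablim1 (0.0829) and Ube2b (0.0855). Nearest to Vegfa were Gpihbp1 (0.0676), Lmna (0.0689) and Hsp90ab1 (0.0696). Gpihbp1 is itself in the list of other endothelial genes. Nearest to Angpt1 were Sbk3 (0.271), Gpr22 (0.323) and Ces1d (0.334), with log2 fold changes of -4.19, -4.57 and -3.78 in untreated KO against WT hearts. The mean of the 6 endothelial markers varied little, by 0.26 on the log2 scale over the 12 libraries, because its members moved in both directions. Genes near it included Mycbp2 (0.0417), Dst (0.0430), Heg1 (0.0496) and Pmm2 (0.0519).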

How the data were processed

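Per the labels' protocols, total heart RNA was depleted of cytoplasmic ribosomal RNA, modified with CMC in the treated groups and made into TruSeq libraries. The submitters' processing notes name the mm10 build and the tools DESeq2 1.16.1, featureCounts 1.5.1, HISAT2 2.0.5 and SAMtools 1.5, without saying what each did. Raw read counts per gene and a gene length in bases are held in the deposited tables. The authors' deposited comparison of untreated hearts holds log2 fold changes with standard errors and p-values, and a mean normalized signal per gene. The deposited ontology and per-base mitochondrial tables were not used here.

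Gene IDs without their version were looked up in GENCODE M21 for symbols and mm10 positions; 51596 of 51911 features had a symbol and 36 were mitochondrial. Library size was the nuclear count of a library, with TMM over nuclear genes. Features passing filterByExpr, mitochondrial ones included, went into edgeR's quasi-likelihood test (edgeR 4.0.16, R 4.3.3), with p adjusted by Benjamini-Hochberg over all features and called at 0.05. Each comparison used its 6 libraries, and the difference of CMC effects all 12. The SE of a log2 fold change was its absolute value divided by the square root of the F statistic of that test. The script was run on simulated counts with the same spread for every gene, which cannot show the error rate of the calls in these data. Likeness used genes with a mean of at least 10 CPM and a prior count of 2 on the log2 scale. Alternatives were other scalings, DESeq2 1.42.0 on nuclear genes, no filter, 1 fit of all 12 libraries, a replicate block and leaving out each library. The precision of low genes is limited by 2683284 to 3187748 nuclear counts. The members, lists and alternatives were chosen with earlier results of these data known. Named from each list were up to 4 called genes with the largest change in untreated KO against WT. A few genes that this rule or the likeness ranking picks are not reported here.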

Additional observations from a re-analysis of the deposited data

How the results depend on the processing

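In KO against WT, all 10 genes kept direction and call in all 13 alternatives in untreated hearts, and 9 of 10 after CMC, where Pecam1 ranged from 0.15 to 0.21 over the fits without 1 library and 4 to 5 genes were called higher. Without TMM factors the median nuclear gene moved to 0.12 in untreated hearts, and all features gave 4414 higher and 2761 lower, against 3567 and 3503. Angpt1, Esam and Kcnj8 have no DESeq2 adjusted p in some CMC comparisons. Same-numbered CMC and untreated libraries of a genotype had correlations of deviations from -0.0188 to 0.0320. In neither genotype did every library correlate best with its own number, which does not show whether they share a heart. Same-numbered KO and WT libraries, which cannot share a heart, ran from -0.0849 to 0.0054. The replicate block left 5 genes higher and 5 lower in untreated KO against WT hearts. For CMC against untreated it left 4 higher in KO and 1 higher in WT.

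For CMC against untreated in KO, DESeq2 called 1 of the genes higher, and 326 features higher and 179 lower, against 817 and 643 by edgeR; leaving out 1 library called 2 to 4 of the genes. In WT, DESeq2 called 0 of the genes higher, with 33 features higher and 55 lower, against 108 and 149. There 176 features were higher without TMM factors, and 197 were higher and 239 lower in 1 fit of all 12 libraries. Leaving out 1 library gave 0 to 1 of the genes, 18 to 343 features higher and 47 to 414 lower, with the highest counts, 343 and 414, without WT CMC replicate 3. For the difference of CMC effects, features called were 88 higher and 77 lower without TMM factors and 69 and 27 by DESeq2, against 142 and 49. Leaving out 1 library gave 0 to 1 of the genes, 64 to 433 features higher and 24 to 200 lower, again highest without WT CMC replicate 3 (433 and 200). The causes were not tested.

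Directions turned only for values that were not called. Without TMM factors, Abcc9 in CMC against untreated WT was 0.0188. Without 1 library, Angpt1 in KO ranged from -0.329 to 0.0430. In WT, Flt1 ranged from -0.0230 to 0.0648, Esam from -0.0173 to 0.121, Abcc9 from -0.0346 to 0.0142 and Kcnj8 from -0.110 to 0.0149. In the difference of effects, Pecam1 ranged from -0.0444 to 0.0239, Kdr from -0.0631 to 0.0205, Tek from -0.0886 to 0.0637, Kcnj8 from -0.253 to 0.0649 and Angpt1 from -0.165 to 0.206.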
